A study of Mus musculus with 10 samples.

Results

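The genes described here are those of the cytosolic ribosomal proteins, the Rpl and Rps genes whose products build the large and the small subunit of the ribosome. Members were chosen by symbol alone: a probe set belonged when its platform annotation gave a single symbol of the Rpl or Rps series, Rplp0, Rplp1, Rplp2 or Rpsa, with pseudogenes and the Rps6 kinases left out, and each gene was represented by its probe set of highest mean signal. That gave 63 of the 19938 genes measured, 38 with large subunit names and 25 with small subunit names. Of these, 54 encode structural proteins of the ribosome (33 large, 21 small). The other 9 (5 large, 4 small) are called like-named here. They are paralogs, retrogenes or binding proteins: Rpl3l, Rpl7l1, Rpl10l, Rpl32l, Rpl39l, Rps4l, Rps23rg1, Rps27l and Rps19bp1. The split was made by symbol and does not show which of their products enter ribosomes.

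The lenses were dissected from E13.5 mouse embryos. DicerCN embryos were Le-Cre+/-; DicerloxP/loxP: a Pax6 P0 promoter expresses Cre in surface ectoderm, the source of the lens and the corneal epithelium, and Dicer, the ribonuclease that matures microRNAs, is deleted there while other cells of the dissected tissue keep it. Control embryos were Le-Cre-/-; DicerloxP/loxP, so both groups carried the flanked Dicer alleles and only DicerCN embryos carried Cre, and an effect of Cre itself and an effect of Dicer loss cannot be told apart. There were 5 arrays per group, and every array held both lenses of a different embryo. Signals are log2 values scaled between arrays, with array medians between 6.54 and 6.56, so a change in total RNA per lens is not visible. The brightest genes of the marker lists were lens genes (Cryaa 14.36 ± 0.04 in DicerCN and 14.42 ± 0.04 in control lenses, SD, n = 5 each). Cryaa does not stand for the list, since 14 of 16 lens markers were lower in DicerCN lenses, some by more. In a dissected tissue, fewer cells of a type and less RNA per cell cannot be told apart. Control replicate 4 stood apart in skeletal muscle markers (Tnni1 at 9.83, against 7.44 to 7.77 in the other control arrays), and DicerCN replicate 5 in neural retina markers, with a score (the mean marker signal minus the control mean, log2 scale) of 1.82, against −0.24 to 0.77 in the other DicerCN arrays. In Col1a1, a periocular mesenchyme marker, control replicate 4 read 10.66, against 8.02 to 8.64 in the other control arrays. DicerCN replicate 3 read 11.19, against 8.49 to 8.92 in the other DicerCN arrays. Counts are also given without each array, and without both control replicate 4 and DicerCN replicate 5.

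A cytosolic ribosome holds a single copy of nearly every ribosomal protein, and cells keep the supply of these proteins matched to one another and to ribosomal RNA. Their mRNAs are among the most abundant of growing cells and share a 5′ terminal oligopyrimidine (TOP) tract, a run of C and T letters at the transcription start through which mTOR signalling and the RNA-binding protein Larp1 control their translation. Myc raises the transcription of many of them. When ribosome assembly fails, free Rpl5 and Rpl11 bind Mdm2, the ubiquitin ligase of p53.

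In DicerCN lenses 22 of the 63 genes fell and 0 rose (limma, adjusted p under 0.05 over all genes). Across all genes tested, 3.97% fell and 2.56% rose (6.54% in either direction). At an unadjusted p under 0.05, 43 members were lower and 0 higher in DicerCN lenses, against 2041 lower and 1667 higher of all genes. The changes were small: the 20 structural genes that fell were 17.5% to 37.6% lower in DicerCN lenses. All 54 structural genes had a change below 0, from −0.68 for Rpl38 to −0.01 for Rplp0 on the log2 scale, although Rpl4, Rplp0, Rpl10 and Rps12 turned positive after quantile normalization, which left 50 of 54 below 0, and Rpl4 and Rplp0 also when arrays were centred on bright genes, which left 52. Among all genes 50.3% had a change below 0. The median change was −0.28 over the structural genes and −0.0014 over all genes. Every DicerCN array lay below every control array in 24 of the 63 genes, against 4.42% of all genes (after quantile normalization in 14, against 4.21% of all genes), and every DicerCN array lay above every control array in 0 of the 63, against 2.96% of all genes.

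Of the 38 genes with large subunit names 15 fell, and of the 25 with small subunit names 7 fell. The small subunit count changed when single arrays were left out. It was 2 without DicerCN replicate 2 or without control replicate 1, 2, 3 or 5. In these fits 2.41% to 3.1% of all genes fell, against 3.97% with all arrays. The count was 3 without DicerCN replicate 5 and 4 without DicerCN replicate 1, and quantile normalization or the replicate block left 3. Without each array the median change of small subunit names stayed between −0.26 and −0.20. The large subunit count was 9 to 17 without each array, the lowest without control replicate 1. Over structural genes alone, 14 of 33 large subunit genes (42.4%) and 6 of 21 small subunit genes (28.6%) fell, with median changes of −0.31 and −0.23, that is 19.5% and 14.6% lower in DicerCN lenses. DicerCN arrays lay wholly below control arrays in 18 of 33 large and 4 of 21 small subunit genes. The difference between the subunits was not tested.

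**Figure D1:**
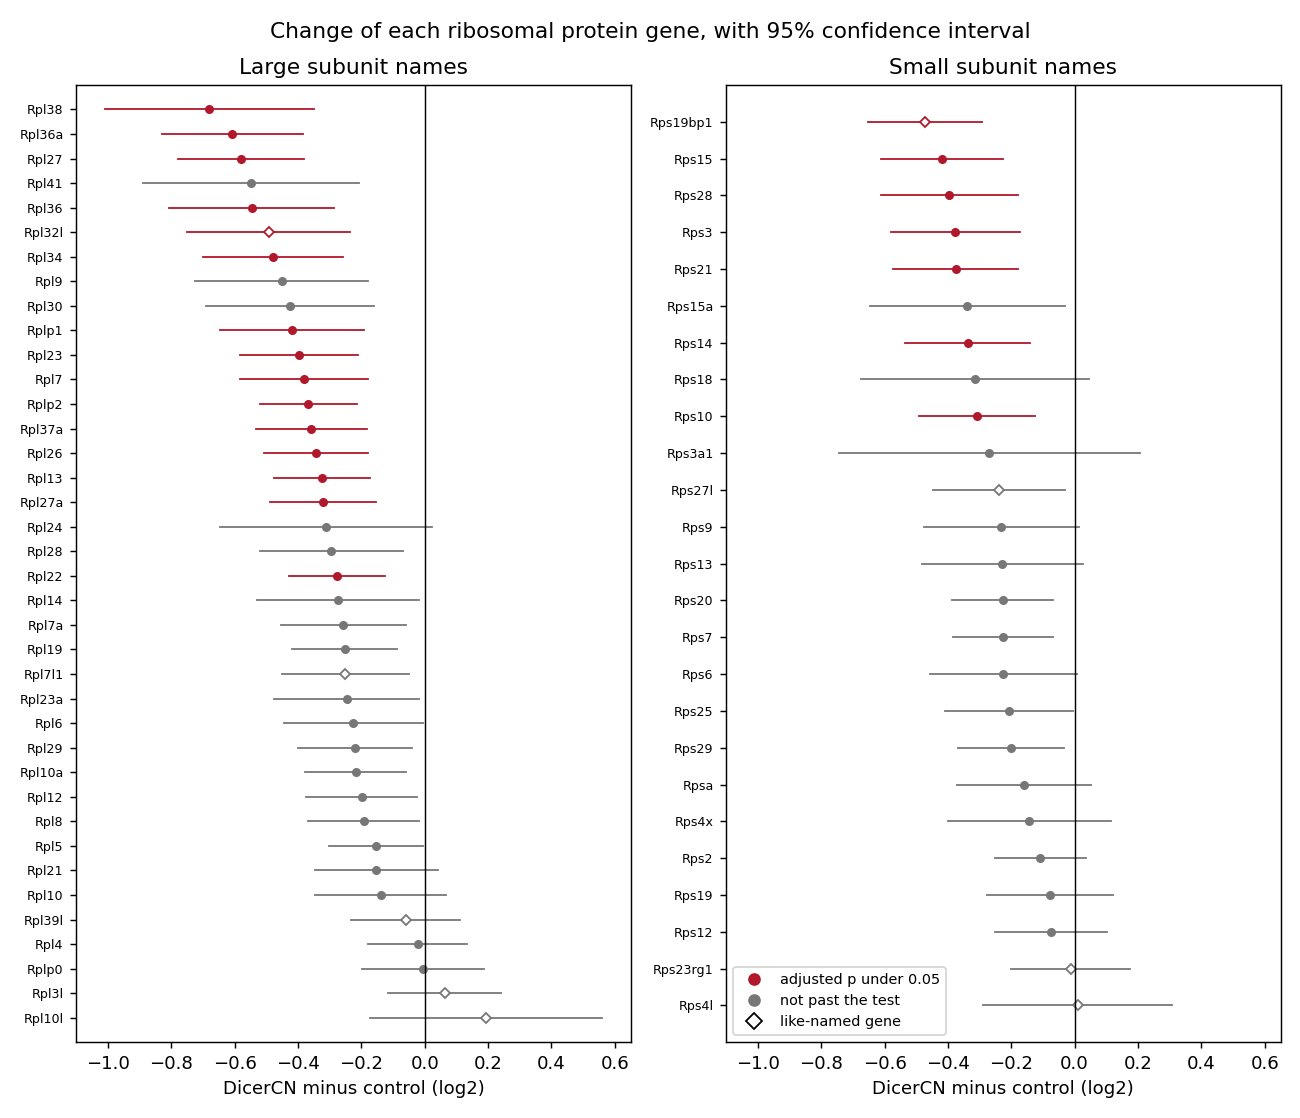
Change of each of the 63 genes (DicerCN minus control, log2 scale, x axis) with its 95% confidence interval from limma, large subunit names on the left and small subunit names on the right, red where the adjusted p was under 0.05 and open diamonds for the 9 like-named genes. All 54 structural genes (round points) have a change below 0, and 20 of them are red.

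The shift was present in every DicerCN array. The median structural gene stood at −0.24, −0.39, −0.27, −0.20 and −0.34 relative to the control mean in DicerCN replicates 1 to 5, and at −0.05, 0.06, 0.05, −0.04 and −0.03 in control replicates 1 to 5. DicerCN replicates 2 and 5 were lowest and the groups did not overlap. For the large subunit the array medians were −0.31 ± 0.08 in DicerCN lenses and −0.01 ± 0.06 in control lenses (SD, n = 5 each). For the small subunit they were −0.23 ± 0.13 in DicerCN lenses and 0.006 ± 0.04 in control lenses (SD, n = 5 each). The large subunit median was below that of the small subunit in DicerCN replicates 1, 3, 4 and 5, by 0.068 to 0.144, and was 0.013 above it in DicerCN replicate 2. The large minus small difference was −0.004, 0.029, −0.012, −0.047 and −0.053 in control replicates 1 to 5, so it was also below 0 in 4 of 5 control arrays.

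**Figure D2:**
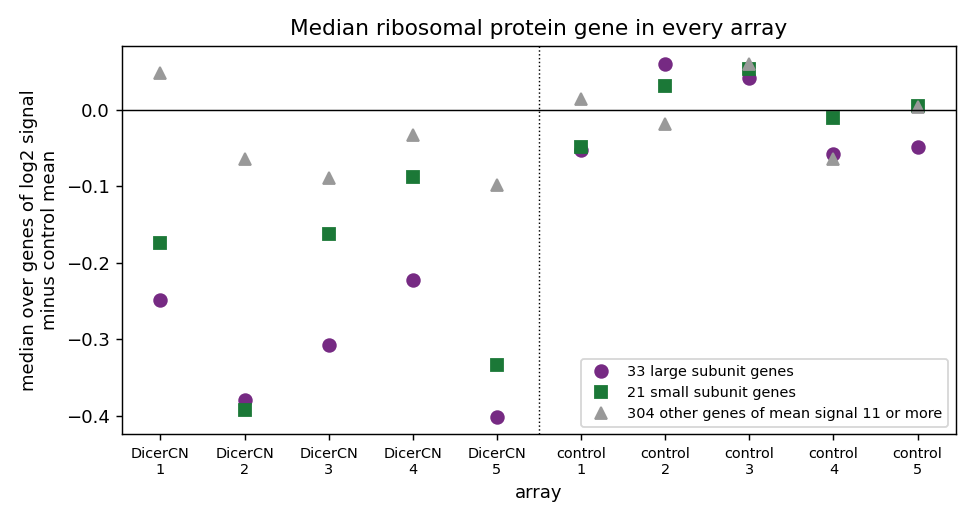
Median over genes of the log2 signal minus the control mean (y axis) in each of the 10 arrays (x axis), for 33 large subunit genes (circles), 21 small subunit genes (squares) and 304 other genes of mean signal 11 or more (triangles). The circles of the 5 DicerCN arrays lie between −0.40 and −0.22, below all control arrays, while the triangles lie between −0.10 and 0.06 over all 10 arrays.

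Ribosomal protein genes are bright on the array, and bright genes as a whole sat slightly lower in DicerCN lenses. The 304 genes of mean signal 11 or more that are not members had a median change of −0.06, and 21 of them fell and 16 rose. All 18 members with a mean signal between 11 and 12 had a change below 0, with a median of −0.31, and so had all 22 members between 12 and 13, with a median of −0.23. The other genes had medians of −0.05 and −0.06 in these ranges. With each array centred on its bright genes, an alternative added after seeing the data, 19 members fell, where 3.1% of all genes fell. That centring also moved the split of all genes called, with 618 of 1265 lower against 792 of 1303 as deposited. After quantile normalization 14 fell, 11 of the large and 3 of the small subunit, where 3.83% of all genes fell.

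**Figure D3:**
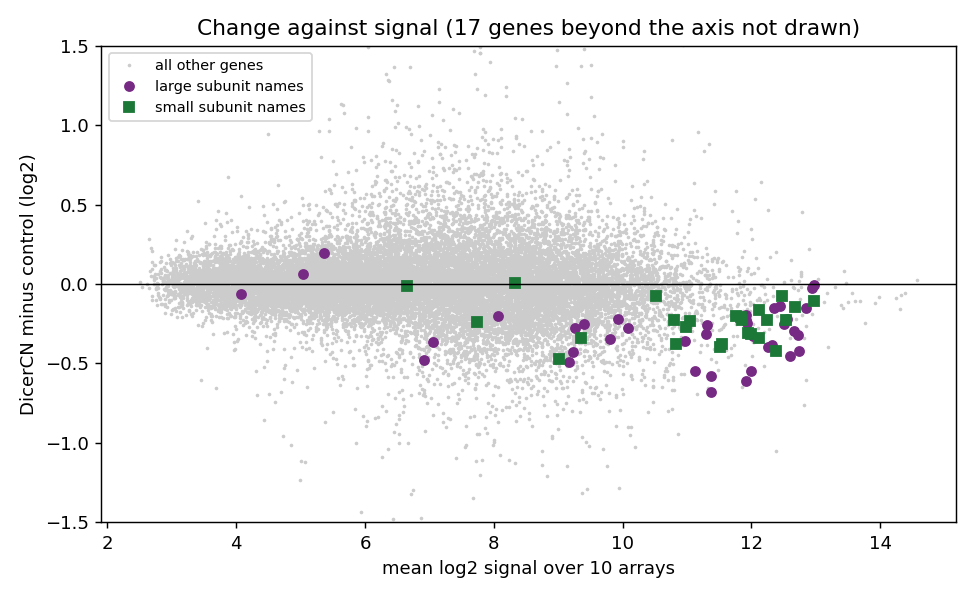
Change (DicerCN minus control, log2 scale, y axis) against mean log2 signal over 10 arrays (x axis) for all genes (grey), large subunit names (circles) and small subunit names (squares). The 17 genes with changes beyond 1.5 in size are not drawn, and 60 of the 63 members lie below 0.

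Among the large subunit proteins, Rpl38 showed the largest change of the 63. Its product is required in the mouse embryo for patterning of the axial skeleton, and the Tail short mutation deletes it. Rpl38 had log2 signals of 11.28, 10.67, 11.06, 11.30 and 10.87 in DicerCN replicates 1 to 5, against 11.62, 11.93, 12.08, 11.34 and 11.60 in control replicates 1 to 5. The lowest control array, replicate 4, lay just above the highest DicerCN array, replicate 4. Rpl38 fell by 0.68 (SE 0.15, limma adjusted p = 0.0189).

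Rpl36a encodes a protein at the ribosome's exit site for tRNA. Rpl36a had signals of 11.78, 11.44, 11.41, 11.88 and 11.56 in DicerCN arrays, against 12.15, 12.36, 12.33, 12.15 and 12.12 in control arrays. The groups did not overlap, and DicerCN replicates 2 and 3 were lowest. Rpl36a fell by 0.61 (SE 0.10, limma adjusted p = 0.00394), which is 34.4% lower, and its other probe set changed by −0.63.

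Rpl27, a protein of the large subunit, had the smallest p of the 63 genes. Its signals were 11.15, 10.97, 11.19, 11.17 and 10.93 in DicerCN lenses and 11.57, 11.71, 11.90, 11.49 and 11.63 in control lenses. The groups did not overlap, and DicerCN replicate 5 was lowest. Rpl27 fell by 0.58 (SE 0.09, limma adjusted p = 0.00261), and all 4 of its probe sets passed the test over probe sets.

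Rpl36 stood at 11.10, 10.67, 10.61, 11.11 and 10.79 in DicerCN lenses and at 11.30, 11.67, 11.50, 11.30 and 11.25 in control lenses. DicerCN replicates 1 and 4 were the highest of their group, close under the control arrays. Rpl36 fell by 0.55 (SE 0.12, limma adjusted p = 0.0173). Rpl41, the smallest protein of the ribosome, had a change of similar size (−0.55, SE 0.16) that did not pass (adjusted p = 0.0579). Its DicerCN arrays spread over an SD of 0.34 and overlapped the control arrays, and it was named after its value was seen.

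The other large subunit genes that fell were Rpl34 (−0.48), Rpl23 (−0.40), Rpl7 (−0.38), Rpl37a (−0.36), Rpl26 (−0.34), Rpl13 (−0.32), Rpl27a (−0.32) and Rpl22 (−0.28). Rpl23 lies at the face that meets the small subunit and can bind Mdm2, and Rpl26 lies near the exit of the peptide tunnel. Rpl22 binds RNA and is known in the mouse to repress its own paralog Rpl22l1. In all 8, every DicerCN array lay below every control array. Rpl13 had the narrowest DicerCN spread of these except Rpl22, with an SD of 0.06, and all 9 of its probe sets fell.

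The acidic stalk of the large subunit, which recruits translation factors, was not uniform. Rplp0, its base, had signals of 13.01, 12.82, 13.02, 13.20 and 12.80 in DicerCN lenses and 12.97, 13.01, 12.92, 13.10 and 12.88 in control lenses, with full overlap. Its change was −0.006 (95% confidence interval −0.20 to 0.19, adjusted p = 0.986), and its other probe set changed by −0.10. Rplp1 had 12.39, 12.39, 12.78, 12.43 and 12.63 in DicerCN lenses against 12.93, 12.84, 13.23, 12.81 and 12.92 in control lenses, without overlap, and fell by 0.42 (SE 0.10, limma adjusted p = 0.032). Rplp2 had 6.98, 6.78, 6.85, 6.90 and 6.83 in DicerCN lenses against 7.17, 7.29, 7.34, 7.19 and 7.19 in control lenses, also without overlap, and fell by 0.37 (SE 0.07, limma adjusted p = 0.00823). Signals of different probe sets are not comparable, so the low signal of Rplp2 says nothing of its level against Rplp1.

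Rpl4, which reaches into the peptide tunnel, was the other large subunit gene near 0. Its signals were 13.04, 12.97, 12.78, 13 and 12.85 in DicerCN lenses and 12.93, 12.94, 12.98, 13 and 12.91 in control lenses. The DicerCN arrays lay on both sides of the narrow control range. Its change was −0.02 (95% confidence interval −0.18 to 0.13, adjusted p = 0.923), so the interval does not reach the median structural change. Rpl5, the 5S RNA partner of Rpl11, stood at −0.15 (interval −0.30 to −0.006, adjusted p = 0.244), although its DicerCN arrays lay below all control arrays. Rpl24, altered in the Belly spot and tail mouse, stood at −0.31 with a DicerCN SD of 0.34 (adjusted p = 0.308). Rpl21 and Rpl10 stood at −0.15 and −0.14 (adjusted p = 0.412 and 0.498). The other probe sets of Rpl21 all changed more than the chosen one, by −0.32 to −0.22, and those of Rpl10 by −0.15 to −0.13.

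**Figure D4:**
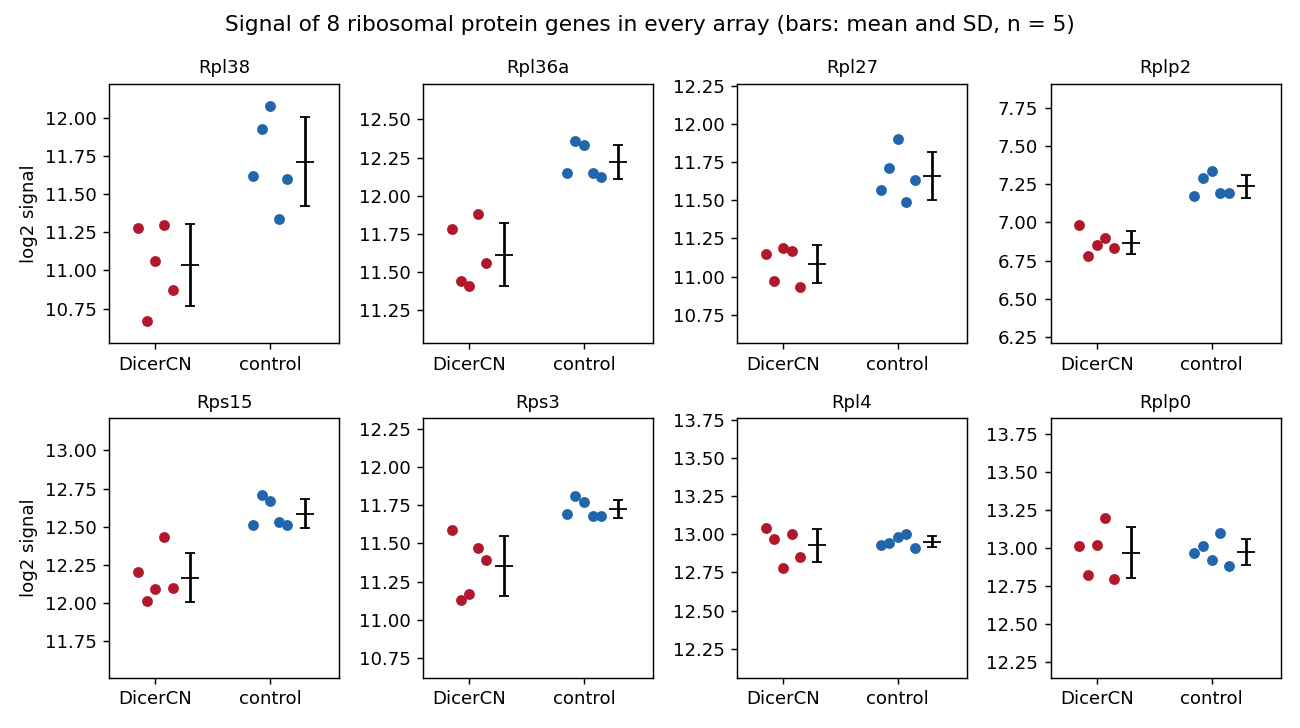
Log2 signal (y axis) of 8 ribosomal protein genes in the 5 DicerCN arrays (red, left) and 5 control arrays (blue, right) of each panel, with the group mean and SD beside the points, all panels spanning the same range. Rpl38, Rpl36a, Rpl27, Rplp2, Rps15 and Rps3 do not overlap between the groups, and Rpl4 and Rplp0 do.

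In the small subunit Rps15, a protein of the subunit's head, showed the largest change of a structural gene. Its signals were 12.20, 12.01, 12.09, 12.43 and 12.10 in DicerCN lenses and 12.51, 12.71, 12.67, 12.53 and 12.51 in control lenses. DicerCN replicate 4 was highest and still below all control arrays. Rps15 fell by 0.42 (SE 0.09, limma adjusted p = 0.0142), and all 3 of its probe sets fell.

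Rps3 lines the channel by which mRNA enters the ribosome. It had signals of 11.59, 11.13, 11.17, 11.47 and 11.39 in DicerCN lenses, against 11.69, 11.81, 11.77, 11.68 and 11.68 in control lenses. The control arrays were tightly grouped, and the DicerCN arrays lay below them over a wider range. Rps3 fell by 0.38 (SE 0.09, limma adjusted p = 0.0326).

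Rps28, a protein of the mRNA exit channel, had signals of 11.17, 11.15, 11.56, 11.40 and 11.27 in DicerCN lenses and 11.69, 11.64, 11.92, 11.52 and 11.75 in control lenses. DicerCN replicate 3 overlapped control replicate 4. Rps28 fell by 0.40 (SE 0.10, limma adjusted p = 0.0343). Rps21 fell by 0.38, Rps14, a platform protein lost in the human 5q- syndrome, by 0.34, and Rps10 by 0.31. Rps14 and Rps10 were close to the threshold (adjusted p = 0.0454 and 0.0486), and the next gene, Rpl9 of the large subunit, fell outside it at −0.45 (adjusted p = 0.0518).

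The other small subunit genes did not pass. Rps7 and Rps20 both stood at −0.23 (adjusted p = 0.0906 and 0.0967), and Rps20 and Rps19 are the genes of dark skin mutant mice. Rps19, mutated in human Diamond-Blackfan anaemia, stood at −0.08 (interval −0.28 to 0.12, adjusted p = 0.736). Rps12 and Rps2 stood at −0.08 and −0.11 (adjusted p = 0.711 and 0.439). Rps4x, from the X chromosome, stood at −0.14 (adjusted p = 0.6). Of the 34 structural genes of both subunits that did not pass, 19 had a confidence interval wholly below 0, so a miss of the threshold does not show equal levels.

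The like-named genes were mixed. Rps19bp1, which binds Rps19 and the deacetylase Sirt1 and is no part of the mature ribosome, had signals of 8.71, 8.81, 8.69, 8.83 and 8.84 in DicerCN lenses and 9.32, 9.14, 9.45, 9.08 and 9.24 in control lenses. It fell by 0.47 (SE 0.08, limma adjusted p = 0.00494), without overlap. Rpl32l, named for its likeness to Rpl32, fell by 0.49 (adjusted p = 0.0273). Rps27l, a paralog of Rps27 that p53 can induce, stood at −0.24 (interval −0.45 to −0.03, adjusted p = 0.193), and Rpl7l1 at −0.25 (adjusted p = 0.149). Rps4l stood at 0.009, Rps23rg1 at −0.01 and Rpl39l at −0.06, and none passed. Rpl3l, the paralog of striated muscle, and Rpl10l, the paralog of testis, had mean signals of 5.03 and 5.36 and changes of 0.06 and 0.19 (adjusted p = 0.772 and 0.623). All 5 low-signal genes among the 9 (Rps27l, Rps23rg1, Rpl3l, Rpl10l and Rpl39l) lay below a mean of 8.

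The members moved with array-to-array differences inside the DicerCN group as well. Among the 54 structural genes, DicerCN replicate 4 was the highest of its group in 23, replicate 3 in 17 and replicate 1 in 13, against 1 for replicate 2 and 0 for replicate 5. Replicates 2 and 5 were lowest in 19 and 16 genes. Some genes, among them Rpl38, Rpl36a, Rpl36, Rpl41 and Rpl9, were highest in DicerCN replicates 1 and 4. Others, among them Rplp1, Rps28, Rps4x and Rpl28, were highest in DicerCN replicate 3. These patterns were picked out after the values were seen.

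**Figure D5:**
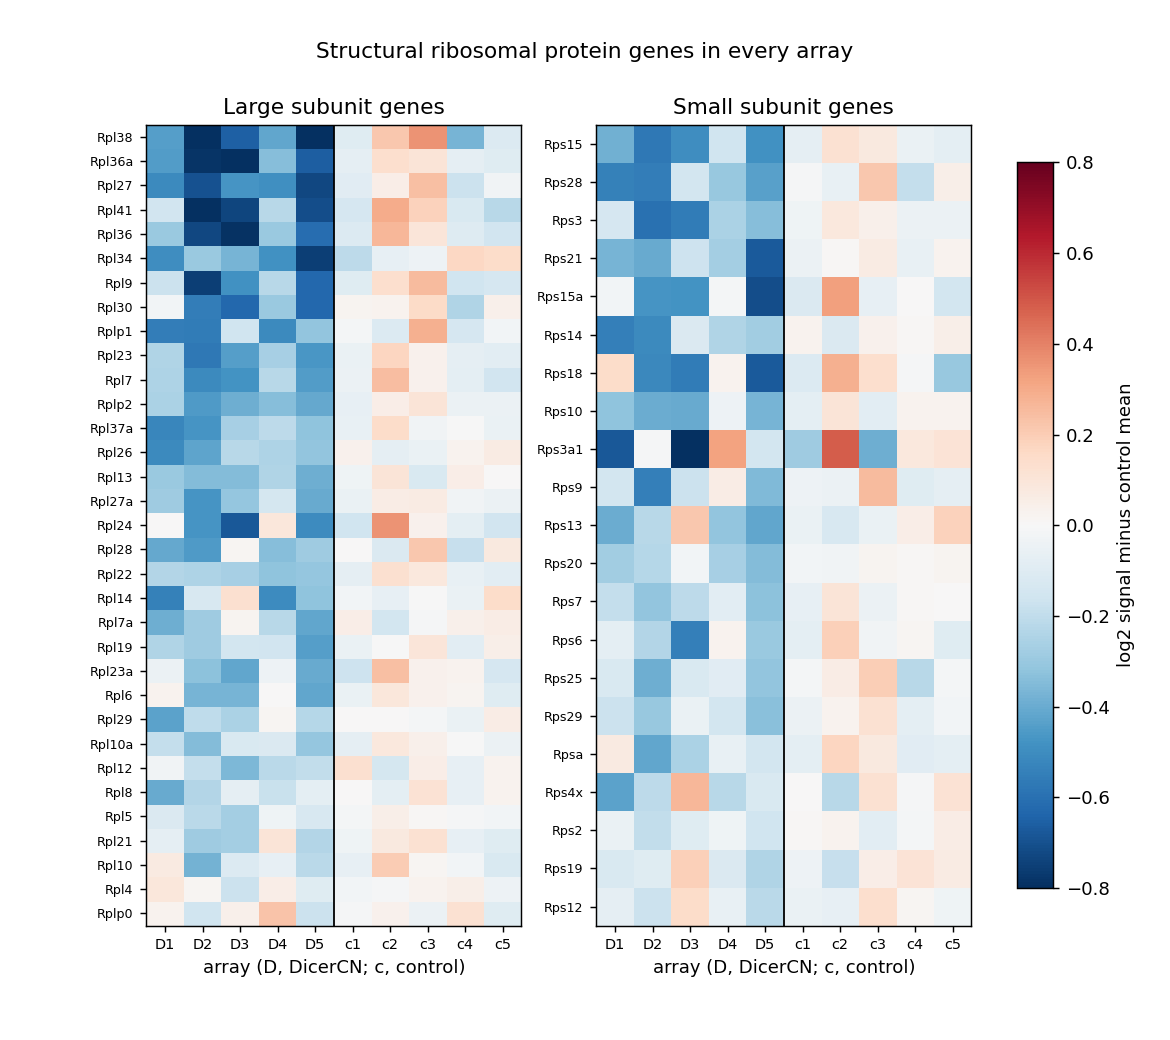
Log2 signal minus the control mean (colour, scale ending at 0.8 in either direction, blue lower) for 33 large and 21 small subunit genes (rows, by mean DicerCN change) in 5 DicerCN arrays (D1 to D5, left) and 5 control arrays (c1 to c5). Blue fills the DicerCN columns of most rows, with D2 and D5 deepest, and fades towards Rpl4 and Rplp0.

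Other probe sets of the same genes gave the same direction. The members had 219 probe sets in all, up to 14 for 1 gene (Rps12), since processed pseudogenes of ribosomal protein genes are many and closely alike. Of the 156 probe sets not chosen, 156 had a change below 0, 33 fell and 0 rose in a fit over all 35557 probe sets, where 2.22% fell. These probe sets can bind the same transcripts and are not independent. Genes and their near-identical copies cannot be told apart on this array, so single values are uncertain where a gene has many probe sets.

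A further 20 ribosomal protein symbols were measured only on probe sets that the annotation shares with other symbols, and they are not members. All 20 had a change below 0, with a median of −0.39, and 7 passed the test over probe sets, on 6 different probe sets. Rpl39 changed most. Its shared probe set read 11.32, 10.80, 10.77, 11.41 and 10.74 in DicerCN lenses against 11.77, 11.97, 11.92, 11.54 and 11.59 in control lenses, and was 40.6% lower (adjusted p = 0.0253). Rpl11, whose free protein binds Mdm2, changed by −0.42 (adjusted p = 0.0308) on a probe set shared with Brf2. Rpl22l1 was 27.4% lower (adjusted p = 0.018), in the same direction as its parent Rpl22. Rpl3 (−0.24), Rps27 (−0.43) and Rpl36al (−0.44) did not pass (adjusted p = 0.23, 0.129 and 0.227).

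The starts of these genes were read from the RefSeq promoter windows of GRCm38.p6, which hold 250 bases before and 50 bases from the annotated start. Windows were found for 43 of the 54 structural genes, 50 windows in all. Shown here are 30-base stretches of the 5 genes of smallest p that fell and the 3 genes of largest p that did not pass, among genes with an unbroken run of at least 8 letters C or T near the start. The capitals mark that run on the sense strand. Counted from the annotated start, with the first transcribed base as 1, only the run of Rplp2 spans the start (−5 to 5). The runs of Rpl34 (−13 to −6) and Rpl13 (−16 to −7) lie before it. The runs of Rps12 (9 to 19), Rps15 (26 to 36), Rps2 (27 to 34), Rpl4 (27 to 41) and Rpl36a (28 to 40) lie after it. None of these 7 marked runs begins at the annotated start. Runs shorter than 8 letters were not searched, so the marks do not show whether a shorter TOP tract lies there.
Rpl36a: gctctagCCTCTCTCTTTCCgagctgctag
Rplp2: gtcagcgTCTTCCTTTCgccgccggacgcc
Rps15: gcccgtaCTTCCTTTTCCgagtaaccgcca
Rpl34: cgcgccgCCTTCCCTgacgtacttcctgtc
Rpl13: gacgtcaCTTCCCTTTCgcctgattttgat
Rpl4: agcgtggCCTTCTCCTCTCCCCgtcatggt
Rps12: ccgccggCCTTTTCCCCTgccgccgccgac
Rps2: taaattgTCCCTTCCgcggcgcctccctct

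Rpl36a lies at chrX:134585674-134585703 (+), Rplp2 at chr7:141447639-141447668 (+), Rps15 at chr10:80292449-80292478 (+), Rpl34 at chr3:130730389-130730418 (−) and Rpl13 at chr8:123102327-123102356 (+). Rpl4 lies at chr9:64173406-64173435 (+), Rps12 at chr10:23787179-23787208 (−) and Rps2 at chr17:24720082-24720111 (+). All are stretches around the annotated start of the gene, upstream sequence or first exon. The first 5 fell and the last 3 did not pass, and a run was the condition for showing any of them.

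A run of at least 8 pyrimidines that touched the 30 letters on either side of the start was present in 58.0% of the 50 windows of structural genes, against 27.3% of all 32851 promoter windows. It was present in 68.4% of the 19 windows of genes that fell and in 51.6% of the 31 windows of genes that did not pass. The core letters of ETS factor sites, CGGAAG, searched on both strands of the whole window, were present in 66.0% of the windows of structural genes, against 16.9% of all windows. The E-box letters CACGTG, which Myc and related factors bind and which read the same on both strands, were present in 14.0%, against 7.15% of all windows. The YY1 core letters AAGATGGC, on both strands, were present in 4.0%, against 2.75%. These shares describe letters in these windows and are no test of binding.

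Other genes of ribosome supply were fixed as lists from general knowledge. Fau, which encodes the small subunit protein Rps30 fused to a ubiquitin-like domain and falls outside the name rule, had signals of 10.82, 10.54, 10.69, 10.84 and 10.65 in DicerCN lenses and 11.01, 11.06, 11.19, 11.05 and 11.01 in control lenses. It fell by 0.36 (SE 0.08, limma adjusted p = 0.0176). Of 50 ribosome biogenesis factors 3 fell and 0 rose in limma, near the share of all genes (3.97% fell), with a median change of −0.04. At an unadjusted p under 0.05, 12 of the 50 were lower and 4 higher, against 2041 lower and 1667 higher of 19938 genes. The 3 that fell were Nop10 (−0.62), of the particles that guide pseudouridylation of ribosomal RNA, Nop16 (−0.47), of large subunit assembly, and Bysl (−0.38), of small subunit maturation. Of 15 genes of RNA polymerase I and its factors 0 passed, with a median of −0.08, and 1 was lower and 0 higher at an unadjusted p under 0.05. Cd3eap (−0.17) and Ubtf (0.18) had the smallest p (adjusted p = 0.252 and 0.315). Of 6 chaperones of single ribosomal proteins, Tsr2, the chaperone of Rps26, fell by 0.30 (adjusted p = 0.0415). At an unadjusted p under 0.05, 2 of the 6 were lower and 1 was higher.

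Among 14 genes of TOP mRNA control and mTOR signalling, 1 rose and 1 fell, where 2.56% of all genes rose and 3.97% fell. At an unadjusted p under 0.05, 3 of the 14 were lower and 1 was higher. Ddit4, an inhibitor of mTOR complex 1, had signals of 8.77, 8.58, 8.30, 8.53 and 8.08 in DicerCN lenses and 7.68, 7.54, 7.65, 7.83 and 7.86 in control lenses, and rose by 0.74 (SE 0.12, adjusted p = 0.00314, limma). Akt1s1, or PRAS40, another inhibitor of the same complex, fell by 0.42 (SE 0.07, adjusted p = 0.00571, limma). Larp1, named after its value was seen, stood at −0.12 (adjusted p = 0.686). Of 9 regulators of ribosomal protein genes Myc alone passed (−1.01, SE 0.13, adjusted p = 0.000806, limma), with signals of 7.06, 7.30, 7.68, 7.76 and 7.63 in DicerCN lenses against 8.43, 8.47, 8.71, 8.32 and 8.55 in control lenses. The groups did not overlap in Myc. Mycn, named after its value was seen, stood the other way at 0.28 (interval 0.10 to 0.46, limma adjusted p = 0.0669). At an unadjusted p under 0.05, 2 of the 9 regulators were lower and 1 was higher. The part of Myc and Mycn in the change of the ribosomal protein genes was not tested.

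Some markers of other cells differed between the groups. Of 15 macrophage markers 14 were above 0 and 3 rose (Csf1r, Cx3cr1 and Ctss), where 2.56% of all genes rose. At an unadjusted p under 0.05, 12 of the 15 markers were higher and 0 lower. Their summed linear signal ran from 1759 to 3077 in DicerCN lenses and from 1182 to 1899 in control lenses. In a fit with the mean macrophage marker change of each array as a covariate, the median change was −0.36 for large and −0.31 for small subunit names. In that fit 1 member, Rpl27, passed (adjusted p = 0.0317), where 0.792% of all genes fell, and 39 members were lower at an unadjusted p under 0.05. The macrophage score was 0.84, 0.19, 0.96, 0.65 and 0.22 in DicerCN replicates 1 to 5 and ran from −0.33 to 0.35 in control arrays. Of 15 neural retina markers 15 were above 0 and 0 passed (3 were higher at an unadjusted p under 0.05), with summed signals of 2601 to 8638 in DicerCN and 2299 to 3243 in control lenses, and with that score as a covariate 10 members fell, where 2.6% of all genes fell. The retina score was −0.24, 0.38, 0.13, 0.77 and 1.82 in DicerCN replicates 1 to 5 and ran from −0.36 to 0.36 in control arrays. Replicate 5, the highest in retina score, had a ribosomal protein median of −0.343. Log2 array signals do not reach 0 and no background level was set, so a marker's signal does not show whether its cells were present. The macrophage score was mostly higher in DicerCN arrays, so the fit with that score cannot tell score and group apart. Calls over all genes in either direction were also fewer in that fit, 216 against 1303. The part of such cells in the result was not tested. Of the other lists, 3 of 16 lens markers and 1 of 12 periocular mesenchyme markers fell, where 3.97% of all genes fell. They were Lctl (−0.60), Birc7 (−0.59) and Cryba4 (−0.40) of the lens list, and Pdgfra (−0.58) of the periocular list. Of the lens markers 14 had a change below 0, and 5 were lower and 0 higher at an unadjusted p under 0.05. Of the 12 periocular markers only 2 had a change below 0, and the median change was 0.28. At that p 1 periocular marker was lower and 1 higher. Of 12 skeletal muscle and 7 erythroid markers 0 passed (0 and 2 at an unadjusted p under 0.05).

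The number of calls changed when single arrays were left out. Without each array in turn, the members that fell numbered 11 to 22. The count was 21 without DicerCN replicate 1 (4.21% of all genes fell), 12 without replicate 2 (3.1%), 22 without replicate 3 (3.21%), 20 without replicate 4 (2.72%) and 14 without replicate 5 (3.25%). It was 11 without control replicate 1 (2.41%), 12 without replicate 2 (2.71%), 12 without replicate 3 (2.53%), 21 without replicate 4 (3.92%), the array with muscle signal, and 15 without replicate 5 (2.67%). Without both DicerCN replicate 5 and control replicate 4 it was 12 (3.41%), and with the replicate number as a block it was also 12 (3.15%). Of the 22 genes, 9 passed in all 10 fits without 1 array: Rpl13, Rpl23, Rpl27, Rpl34, Rpl36, Rpl36a, Rplp2, Rps15 and Rps19bp1. Rps10 and Rps14 passed in 1 each. Of the 9, Rpl23 and Rpl36 did not pass with the block (limma adjusted p = 0.0539 and 0.0509). After quantile normalization 13 of the 22 still passed. Those lost were Rpl13 and Rps15 (limma adjusted p = 0.0641 and 0.053), Rpl7, Rpl27a, Rpl37a, Rplp1, Rps10, Rps14 and Rps28. Without each array in turn, the median changes ran from −0.32 to −0.27 for large and from −0.26 to −0.20 for small subunit names.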

How the data were processed

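Lens RNA (100 ng) was labelled by the Affymetrix whole-transcript assay and hybridised to 10 arrays, 5 DicerCN and 5 control, per the labels' protocols. GCOS is named in the submitters' processing notes, and the sources used here do not give the method of probe summary. The deposited values are taken as log2 signals from their range (1.91 to 15.2), and near-equal array medians show that the authors had scaled the arrays. Arrays give no counts, so their number limits the precision.

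Of 35557 probe sets, 21789 had 1 symbol in the platform annotation, 1621 several and 12147 none. Symbols were matched by gene ID to RefSeq (GRCm38.p6) for 21698, and 0 changed. No filter on low values was used. The groups were set against each other in limma 3.58.1 (R 4.3.3) with lmFit and eBayes over all 19938 genes, 2-sided, with Benjamini-Hochberg adjustment and a threshold of 0.05. A change is the log2 difference, DicerCN minus control. The fit was tested on simulated data. Lists are described by counts and medians without a list test.

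Named genes are the members past the test, the 4 of highest and of lowest signal, the 3 largest changes in each direction per subunit, the stalk proteins, Rpl5, Rpl11, genes of mouse mutants (Rps19, Rps7, Rps20, Rpl24, Rpl38), paralogs with their parents, Rps19bp1, and of each list the genes past the test (up to 4, else the 2 of smallest p) and Myc. In the neural retina and erythroid lists, where no gene passed, none is named. Rpl9, Rpl28, Rpl41, Larp1, Mycn, Cryaa and Col1a1 were named after their values were seen. Members, lists and tests were chosen with earlier results of these data known. The labels do not say whether embryos of the same replicate number are paired. Same-numbered arrays of the groups correlated at −0.088 to 0.19 in their deviations, and arrays of different numbers at −0.37 to 0.33. These values cannot show whether the numbers pair the embryos. Alternatives were other scalings, a filter on dim genes, the mean of probe sets, array weights, a trended prior, the replicate block, left-out arrays, marker scores as covariates, and structural genes only.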

Additional observations from a re-analysis of the deposited data

Results flagged for a closer look

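In 7 of 134 groups of 5 arrays examined among named genes and array medians, a single array lay far from the other 4, and chance alone marks about 1 group in 20. Among ribosomal protein genes, Rps10 read 12.05 in DicerCN replicate 4, against 11.70 to 11.77 in the other DicerCN arrays, and Rpl3l read 4.82 in DicerCN replicate 1, against 5.10 to 5.16. Rpl37a read 11.29 in control replicate 2, against 11.08 to 11.14 in the other control arrays. Rplp1 read 13.23 in control replicate 3, against 12.81 to 12.93, and Rps14 read 12.17 in control replicate 2, against 12.30 to 12.33. The muscle genes Tnni1 and Mylpf read 9.83 and 8.55 in control replicate 4, against 7.44 to 7.77 and 5.69 to 6.05 in the other control arrays.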

How the results depend on the processing

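Under every alternative run 0 members rose, and 0 were higher at an unadjusted p under 0.05 in limma. Large subunit names that fell numbered 15, and small subunit names 7. They numbered 9 and 3 with the replicate block and without both DicerCN replicate 5 and control replicate 4, 8 and 2 with the neural retina score, and 1 and 0 with the macrophage score, where 14 small subunit names were lower at an unadjusted p under 0.05 in limma. After quantile normalization the small subunit count was 3, and 14 members had all DicerCN arrays below all control arrays instead of 24 (4.21% of all genes against 4.42%). Without each array in turn the counts ran from 9 to 17 and from 2 to 7, and members with all DicerCN arrays below all control arrays from 24 to 32, where the share of all genes ran from 4.8% to 6.51%, since fewer arrays overlap less readily. The median change in the main fit was −0.29 for large and −0.23 for small subunit names. Without each array the large subunit median ran from −0.32 to −0.27, and that of the small subunit from −0.26 to −0.20. The large subunit median was −0.36 with the macrophage score. Both medians were nearer 0 after quantile normalization (−0.24 large, −0.20 small) and with arrays centred on bright genes (−0.25 and −0.19). With array medians centred they were −0.31 and −0.25. The overlap count is not defined for the block, covariate, weight and prior settings. The labels state no pairing by replicate number, and the block left 12 of the 22 calls.

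Signs turned only in members that did not pass, under these alternatives. Rpl10 was 0.0054, Rpl4 0.073, Rplp0 0.087 and Rps12 0.093 after quantile normalization. Rpl4 was 0.015, Rplp0 0.031 and Rps23rg1 0.024 with arrays centred on bright genes, which was chosen after seeing the data. With array weights Rpl4 was 0.0001 and Rplp0 0.018, and without both arrays named above they were 0.0091 and 0.066. Rplp0 was 0.028 and Rps19 0.0023 with the retina score. Rps4l was −0.013 with arrays centred on the median and −0.034 over the mean of its probe sets. Without each array in turn, Rpl4 ran from −0.051 to 0.016, Rplp0 from −0.064 to 0.036, Rps23rg1 from −0.070 to 0.037 and Rps4l from −0.098 to 0.084. The causes were not tested.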

Other observations

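Over the 54 structural genes the change was related weakly to the mean signal of the probe set (Pearson's r = 0.24, Spearman's rho = 0.32), to the number of probe sets (0.08 and 0.08) and to the RefSeq span of the gene on a log10 scale (0.20 and 0.15). These values are across genes, which share the arrays and their scaling, and describe these data only.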
